A study of Mus musculus with 6 samples.

Results

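The genes described here build the MHC class I pathway, by which a cell shows peptides of its own proteins at its surface. They were chosen by name: 10 genes, comprising the light chain B2m, the heavy chains H2-K1 and H2-D1, the peptide transporter genes Tap1 and Tap2, the loading factor Tapbp, the immunoproteasome subunits Psmb8, Psmb9 and Psmb10, and the transactivator Nlrc5. A gene counted as measured where a probe set of the array carried its symbol and no other, which held for 9 of the 10, on 10 of the 41345 probe sets. H2-D1 had no such probe set and is given no value. Total RNA was hybridised from 3 samples of undifferentiated mouse embryonic stem (ES) cells, which are pluripotent, and 3 samples of Pax7-GFP cells, which are ES-derived cells sorted for a green fluorescent reporter of the muscle progenitor gene Pax7 at 3 weeks of myogenic differentiation. The sorting gate was set on undifferentiated cultures. The labels name no strain, line or MHC haplotype, give no other genotype or treatment, and do not say whether the ES cells were sorted as well. Each array measured a bulk sample, so fewer cells with a transcript and less of it per cell cannot be told apart.

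A class I molecule is a heavy chain that is held together by the light chain, beta-2 microglobulin, and by a peptide. The immunoproteasome cuts proteins with Psmb8, Psmb9 and Psmb10 in place of the constitutive subunits Psmb5, Psmb6 and Psmb7. The transporter made of Tap1 and Tap2 carries peptides into the endoplasmic reticulum, where Tapbp (tapasin) bridges it to the empty heavy chain. Interferons raise most of these genes, and Nlrc5 acts at the promoters of class I genes. Pluripotent cells and resting muscle fibres are both known for little class I at the surface.

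Promoter sequences are shown first for 3 of the genes: the light chain, a heavy chain that pairs with it, and a transporter gene that shares its promoter with a proteasome gene. RefSeq promoter windows on GRCm38.p6, each from 250 bases before to 50 bases after the annotated start, were found for 8 of the 10 genes, all but Tap2 and Nlrc5. Windows are printed 5′ to 3′ on the strand of the gene, and capitals mark every match to a searched motif on either strand. The B2m window lies at chr2:122147437-122147736 on the plus strand, the H2-K1 window at chr17:34000298-34000597 on the minus strand and the Tap1 window at chr17:34187306-34187605 on the plus strand.
B2m: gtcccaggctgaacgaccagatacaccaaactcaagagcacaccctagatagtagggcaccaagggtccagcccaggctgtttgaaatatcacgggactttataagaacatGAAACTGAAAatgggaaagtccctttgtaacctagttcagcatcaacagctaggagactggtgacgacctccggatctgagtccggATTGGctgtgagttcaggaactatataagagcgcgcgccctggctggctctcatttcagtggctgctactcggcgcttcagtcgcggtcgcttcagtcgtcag
H2-K1: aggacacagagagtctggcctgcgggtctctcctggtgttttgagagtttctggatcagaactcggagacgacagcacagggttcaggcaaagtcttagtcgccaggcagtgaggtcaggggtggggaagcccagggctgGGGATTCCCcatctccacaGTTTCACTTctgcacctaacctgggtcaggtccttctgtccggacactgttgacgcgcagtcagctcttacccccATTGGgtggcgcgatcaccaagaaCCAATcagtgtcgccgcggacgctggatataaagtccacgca
Tap1: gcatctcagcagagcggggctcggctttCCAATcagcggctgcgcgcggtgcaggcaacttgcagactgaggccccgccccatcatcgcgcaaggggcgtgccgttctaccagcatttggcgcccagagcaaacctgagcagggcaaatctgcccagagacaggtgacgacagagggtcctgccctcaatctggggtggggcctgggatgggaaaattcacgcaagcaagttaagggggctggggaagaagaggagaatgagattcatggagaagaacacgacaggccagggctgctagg

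The interferon-stimulated response element, searched as GAAANNGAAA, occurred in 1 of the 8 windows, that of B2m, 139 bases before the start, and in 3.49% of all 27025 windows. The Y box CCAAT, bound by the factor NF-Y, occurred in 6 of the 8 and in 37.9% of all windows. Its complement ATTGG stands in capitals 53 bases before the start in B2m and 16 bases before it in H2-K1. In H2-K1 a CCAAT also begins at base 9 after the annotated start. In H2-D1 the same ATTGG and CCAAT begin 76 and 53 bases before its annotated start. The gamma-activated site, searched as TTCNNNGAA, was found in 1 window, that of Psmb8, and in 8.47% of all. After these windows had been read, the class I form of the interferon response element, AAGTGAAAC, and a kappa B core, GGGATTCCC, were searched as well. Each occurred in H2-K1 and H2-D1 among the 8, against 0.403% and 0.37% of all windows. In H2-K1 the kappa B letters begin 110 bases and the response element 91 bases before the start. In H2-D1 these distances are 170 and 151 bases, so they depend on where each start is annotated. The Psmb9 window runs on the other strand and shares 275 bases with that of Tap1, the pair being divergent neighbours, and in both it is the same Y box that stands in capitals. A match describes letters and does not show that a factor bound there.

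**Figure D1:**
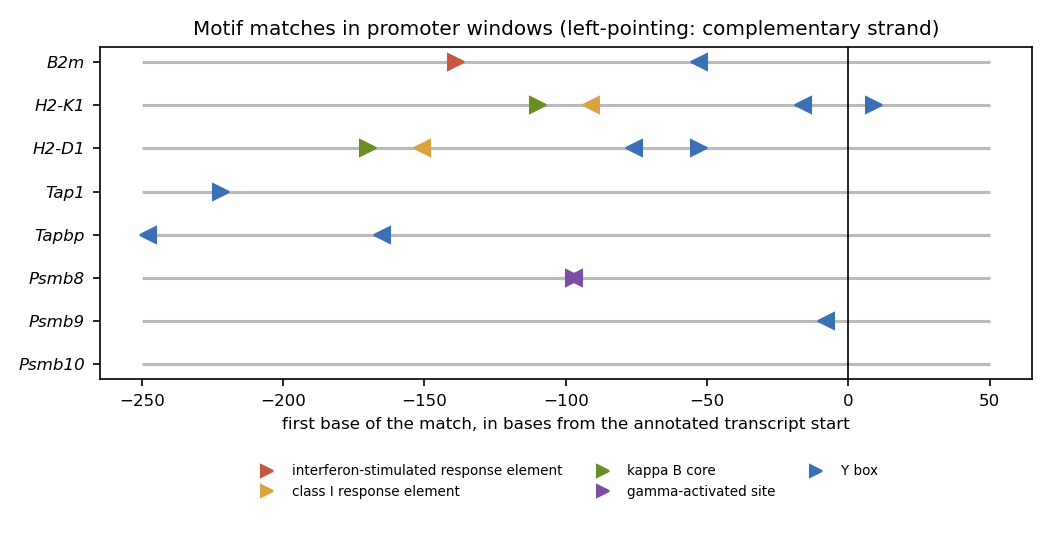
Positions of motif matches in the 8 promoter windows, by the distance of the first matched base from the annotated transcript start (horizontal axis, in bases); each line is 1 gene, colours are motifs and left-pointing marks are matches on the complementary strand. H2-K1 and H2-D1 carry the same order of matches, B2m alone carries the interferon-stimulated response element as searched, and Psmb10 has no match.

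Marker genes of both states followed the labels. The mean signal of Pax7, whose reporter the sort selects for, was 5.70 ± 0.073 on the ES arrays and 10.90 ± 0.25 on the Pax7-GFP arrays (SD, n = 3 each). That of Nanog, a pluripotency factor, was 12.02 ± 0.072 and 5.13 ± 0.15. Values are log2 RMA signals, on which 1 unit is a 2-fold difference. They compare 1 probe set between arrays and not 1 gene with another. Array medians lay between 5.61 and 5.69. Of the 8 ES markers 7 were called lower and 0 higher, and of the 8 myogenic markers 7 were called higher and 0 lower (limma, 0 in the opposite direction at an unadjusted p under 0.05 in either list). Of all genes 7.15% were called lower and 7.34% higher.

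Among the class I genes, the light chain rose and the measured heavy chain did not. A call needed both a difference of at least 2-fold and an adjusted p under 0.05 (limma, Benjamini-Hochberg over 22180 genes). By this rule 1 of the 9 genes, B2m, was higher in Pax7-GFP cells, where 7.34% of all genes were, and 0 were lower, where 7.15% were (1 of 9 lower at an unadjusted p under 0.05). Past the p threshold alone, 3 of 9 were higher, against 19.7% of all genes, and 1 was lower, against 21.4%. The groups did not overlap in 2 genes that were higher, B2m and Tap2, against 26.2% of all genes, and in 2 that were lower, Tapbp and Psmb10, against 25.6%. These shares describe a set of 9 in which single genes decide each count. The median log2 fold change was 0.18, beside 0.024 over all genes.

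B2m, measured by probe set 17375373, had log2 signals of 10.95, 11.08 and 11.12 in ES cells and of 12.50, 12.34 and 12.21 in Pax7-GFP cells. Every Pax7-GFP array lay more than 1 unit above every ES array. The difference between the group means was 1.30 (SE 0.10, 95% confidence interval 1.07 to 1.53), or 2.46-fold (limma, adjusted p = 1.69e-05). It lay between 1.22 and 1.37 when single arrays were left out.

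H2-K1, a classical heavy chain measured by probe set 17343710, had signals of 7.32, 7.43 and 7.49 in ES cells and of 7.62, 7.48 and 7.30 in Pax7-GFP cells. The groups overlapped, with Pax7-GFP replicate 1 above the ES range, replicate 2 inside it and replicate 3 below it. The log2 fold change was 0.051 (SE 0.10, 95% confidence interval -0.19 to 0.29, limma adjusted p = 0.754), an interval that reaches a 2-fold difference on neither side. Heavy chain genes are close copies of one another, and the haplotype of the cells is not given, so the signal cannot be assigned to H2-K1 with certainty. The difference between B2m and H2-K1 within an array was 3.64 ± 0.012 in ES and 4.88 ± 0.031 in Pax7-GFP cells (SD, n = 3 each), so both genes did not change alike. Its change of 1.25 gave an exact permutation p of 0.1 (two-sided), the smallest that 3 against 3 arrays allow. It was 1 of 6 such pairs, chosen after the values were seen, and the Benjamini-Hochberg value over the 6 is also 0.1.

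**Figure D2:**
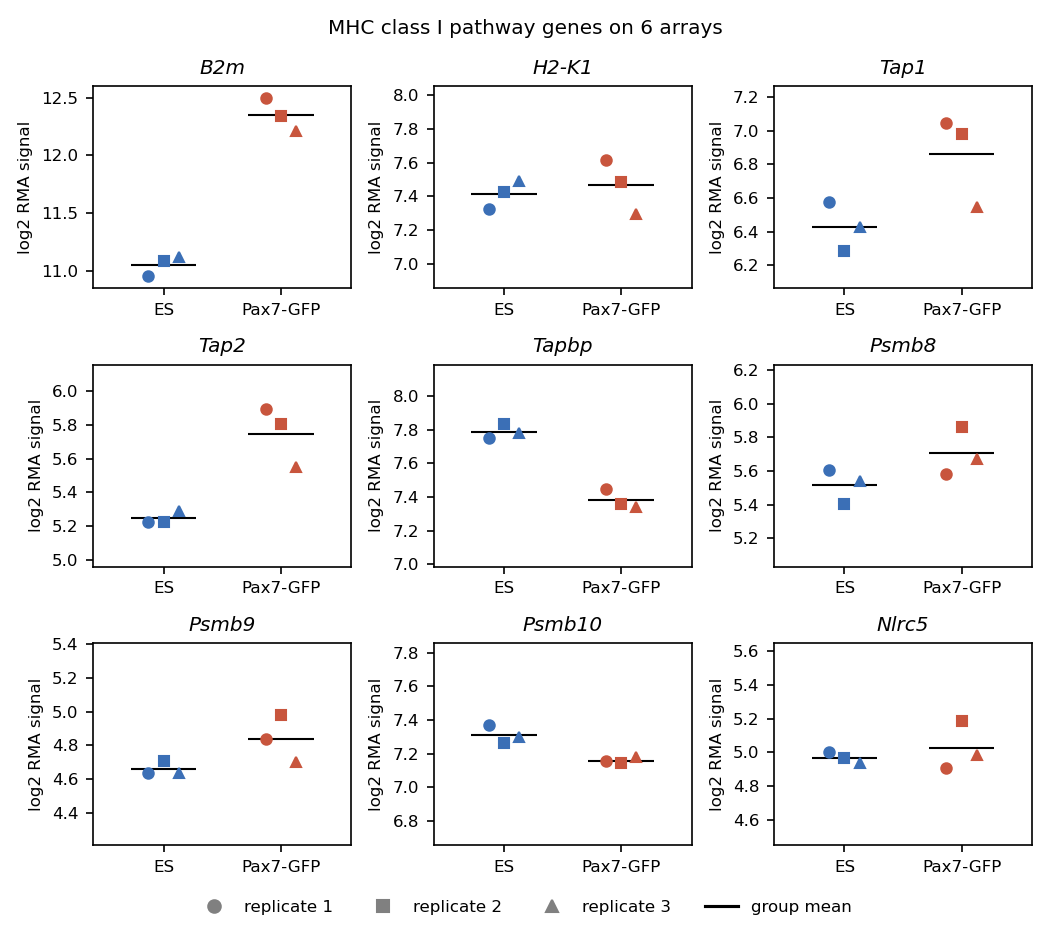
Log2 RMA signal (vertical axes) of the 9 measured class I genes in 3 ES and 3 Pax7-GFP arrays; each point is 1 array, shapes are replicate numbers and lines are group means. Each panel has an axis of its own, so heights compare within a gene. B2m, Tap2, Tapbp and Psmb10 show groups that do not overlap, and only B2m differs by more than 2-fold.

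On the probe sets of highest mean, the transporter genes stood higher and Tapbp, their bridge to the heavy chain, lower. Each differed by less than 2-fold, and none passed the p threshold in all 14 refits. Tap2, which encodes a subunit of the peptide transporter, had signals of 5.22, 5.22 and 5.29 in ES cells and of 5.90, 5.80 and 5.55 in Pax7-GFP cells. Its groups did not overlap, and the means differed by 0.50 (SE 0.10, limma adjusted p = 0.00462). Tap2 lay below 5.64, the median of all values, on 4 of the 6 arrays, and with values under that median raised to it the log2 fold change was 0.14 (adjusted p = 0.199).

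Tap1, the partner subunit, had signals of 6.57, 6.29 and 6.43 in ES cells and of 7.05, 6.98 and 6.55 in Pax7-GFP cells. Pax7-GFP replicate 3 fell inside the ES range. The means differed by 0.43 (SE 0.14, limma adjusted p = 0.0433), just past the p threshold. Of 14 alternative settings 6 kept it past the threshold. Without Pax7-GFP replicate 3 it was 0.59 (adjusted p = 0.00454), and leaving out any other single array gave an adjusted p of at least 0.0551 and at most 0.156.

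Tapbp, which encodes tapasin, went the other way. On probe set 17336228 its signals were 7.75, 7.83 and 7.78 in ES cells and 7.45, 7.36 and 7.34 in Pax7-GFP cells. All Pax7-GFP arrays lay below all ES arrays, and the means differed by -0.41 (SE 0.078, limma adjusted p = 0.00322). A further Tapbp probe set, 17343675, lay between 6.08 and 6.17 on all 6 arrays, and its means differed by 0.012 (SE 0.075, limma adjusted p = 0.93 over all probe sets). The probe sets of this gene disagree, and with their mean Tapbp stood at -0.20 (adjusted p = 0.0646). With probe set 17336228, the difference between Tap2 and Tapbp within an array was -2.54 ± 0.061 in ES and -1.63 ± 0.14 on the sorted arrays (SD, n = 3 each, exact permutation p = 0.1, the smallest possible). This includes the fall of that Tapbp probe set, which 17343675 did not show.

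None of the 3 immunoproteasome subunits passed the p threshold (limma, 0 of 3 also at an unadjusted p under 0.05). Psmb8 had signals of 5.61, 5.40 and 5.54 in ES cells and of 5.58, 5.86 and 5.67 in Pax7-GFP cells, which overlap, with a log2 fold change of 0.19 (95% confidence interval -0.047 to 0.42, limma adjusted p = 0.193). Psmb8 lay below the median of all values on 4 of the 6 arrays, and with values under that median raised to it the log2 fold change was 0.081 (adjusted p = 0.421). Psmb9 lay between 4.63 and 4.71 in ES cells and between 4.70 and 4.98 in Pax7-GFP cells, at 0.18 (95% confidence interval -0.035 to 0.40, adjusted p = 0.173). It was below the median of all values on all 6 arrays, so the data give little hold on its level. Psmb10 lay between 7.27 and 7.37 in ES cells and between 7.14 and 7.18 in Pax7-GFP cells. Its groups did not overlap, yet the log2 fold change of -0.15 (95% confidence interval -0.33 to 0.022) did not pass (limma adjusted p = 0.156).

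The constitutive subunits that these 3 replace were lower in Pax7-GFP cells past the p threshold, each by less than 2-fold. Psmb5, the counterpart of Psmb8, stood at a log2 fold change of -0.62 with an SE of 0.084 (limma adjusted p = 0.000435). Psmb7, the counterpart of Psmb10, stood at -0.36 (SE 0.088, adjusted p = 0.0111), and Psmb6, the counterpart of Psmb9, at -0.25 (SE 0.080, adjusted p = 0.0333). The log2 difference between the immunoproteasome and the constitutive subunit within an array was therefore higher in Pax7-GFP cells in all 3 pairs. For Psmb8 over Psmb5 it went from -6.55 ± 0.12 to -5.74 ± 0.21 (SD, n = 3 each), a change of 0.81 that includes the dim signal of Psmb8. For Psmb9 over Psmb6 the change was 0.43, which includes Psmb9 signals below the median of all values on all 6 arrays. For Psmb10 over Psmb7 the change was 0.21. In each pair the 3 Pax7-GFP arrays lay above the 3 ES arrays (exact permutation p = 0.1 each, the smallest possible). In each of these pairs the constitutive partner was lower, and for Psmb10 both partners had negative fold changes.

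All 13 measured subunits of the constitutive core, in which Psmb5, Psmb6 and Psmb7 are included, had log2 fold changes below 0. Of all 22180 genes 10177 did. The median of the core was -0.30. Of the 13, 7 were lower past the p threshold, against 21.4% of all genes, and 1 of them by at least 2-fold, against 7.15%. Past the threshold 0 were higher, against 19.7% (limma, 0 also at an unadjusted p under 0.05). The called member was Psmb3, a structural beta subunit, at -1.12 (SE 0.15, limma adjusted p = 0.000494). Without Pax7-GFP replicate 3 it stood at -0.99, so that 0 members were called. Among 9 genes of proteasome activators and assembly 0 were called either way, against 7.34% of all genes higher and 7.15% lower (limma, 1 higher and 4 lower at an unadjusted p under 0.05). Without Pax7-GFP replicate 3, 1 of the 9 was lower. Psme1, a subunit of the interferon-inducible activator named after its values were seen, stood at 0.50 (adjusted p = 0.0282).

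**Figure D3:**
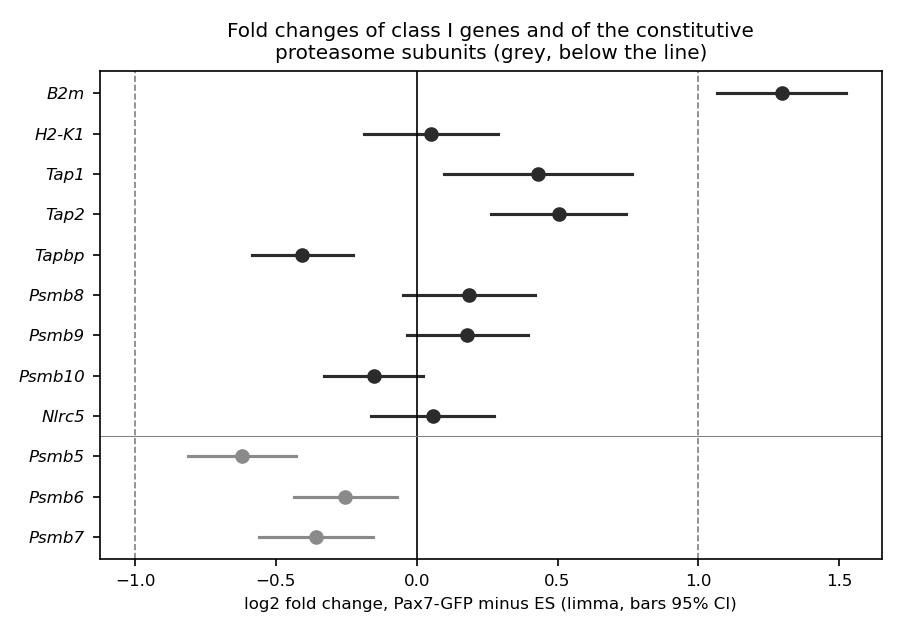
Log2 fold change of Pax7-GFP over ES cells (horizontal axis) with 95% confidence intervals from limma for the 9 class I genes (black) and for Psmb5, Psmb6 and Psmb7, the constitutive counterparts of Psmb8, Psmb9 and Psmb10 (grey); dashed lines mark a 2-fold difference. The interval of B2m lies wholly past the dashed line, and those of the other 8 class I genes lie wholly inside it.

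Nlrc5, the transactivator of class I promoters, had signals of 5.00, 4.96 and 4.94 in ES cells and of 4.91, 5.19 and 4.98 in Pax7-GFP cells. The groups overlapped, and the log2 fold change was 0.057 (95% confidence interval -0.16 to 0.28, limma adjusted p = 0.691). It was below the median of all values on all 6 arrays. Among 16 measured factors of class I promoters 2 were called higher and 0 lower, against 7.34% and 7.15% of all genes (limma, 3 lower at an unadjusted p under 0.05). The list's median was 0.011. Irf2, which binds interferon response elements and can repress there, rose by 2.10 (SE 0.19), from 5.25, 5.22 and 5.71 to 7.68, 7.13 and 7.68. Creb1, which binds the X box region of MHC promoters, rose by 1.13 (SE 0.082, limma adjusted p = 1.26e-05). Irf1, an activator at the same elements as Irf2, named after its values were seen, stood at 0.19 (adjusted p = 0.295).

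Other genes of peptide loading were not called. Of 10 measured, 0 were called in either direction, against 7.34% of all genes higher and 7.15% lower (limma, 2 higher and 4 lower at an unadjusted p under 0.05). By less than 2-fold 1 was higher and 4 were lower at an adjusted p under 0.05, against 12.4% and 14.3% of all genes. The list's median was -0.13. The chaperones of the heavy chain in the endoplasmic reticulum, named after their values were seen, were lower past the p threshold by less than 2-fold, with Calr (calreticulin) at -0.75, Pdia3 at -0.44 and Canx (calnexin) at -0.43 (limma adjusted p = 0.000304, 0.00327 and 0.00226). Sec61g, a subunit of the translocon, was also lower at -0.50 (adjusted p = 0.00523). The 1 that was higher, likewise named afterwards, was Sec22b, a vesicle fusion protein of the secretory pathway, at 0.58 (adjusted p = 0.00144).

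Of 14 further heavy chain genes, 1 was called lower and 0 higher, against 7.15% and 7.34% of all genes (limma, 2 higher and 3 lower at an unadjusted p under 0.05). The list's median was 0.028. The called gene was H2-M5, a nonclassical heavy chain, with signals of 9.50, 9.50 and 9.49 in ES cells and of 5.99, 6.69 and 6.36 in sorted cells. It fell by 3.16 (SE 0.16, limma adjusted p = 1.5e-06), and the SD was 0.0059 among its ES arrays and 0.35 among its Pax7-GFP arrays. Among 10 measured class I-like genes 1 was higher and 0 lower, against 7.34% and 7.15% of all genes (limma, 0 lower at an unadjusted p under 0.05). This was Mr1, which presents vitamin metabolites and also needs the light chain, at 2.35 (SE 0.40, limma adjusted p = 0.00172). Its Pax7-GFP arrays read 8.67, 7.25 and 6.79, all above the ES range of 5.18 to 5.27, and without Pax7-GFP replicate 1 the log2 fold change was 1.80. Close copies in both families may share probes.

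Receptor genes of interferon were among those higher in Pax7-GFP cells. In the list of 12 interferon ligands, receptors, kinases and inhibitors, 4 were called higher and 1 lower, against 7.34% and 7.15% of all genes. With quantile normalization, and without Pax7-GFP replicate 1, 5 were called higher. A further 3 were higher and 0 lower by less than 2-fold at an adjusted p under 0.05, against 12.4% and 14.3% of all genes (limma, 1 lower at an unadjusted p under 0.05, Tyk2). The list's median was 0.55. Ifngr1, the ligand-binding chain of the interferon gamma receptor, rose from 6.86, 6.91 and 6.77 to 8.68, 8.79 and 8.95, by 1.96 in the mean (SE 0.096, limma adjusted p = 1.29e-06). Ifnar2, a chain of the type I receptor, and the kinase Jak2, both named after their values were seen, rose by 1.66 and 1.47 (limma adjusted p = 4.69e-05 and 1.9e-05). Tyk2, a kinase of the type I receptor, fell by 1.11 (SE 0.079, adjusted p = 1.14e-05). Usp18, an interferon-induced inhibitor of that receptor, rose by 2.48 (SE 0.29, adjusted p = 0.000177). The genes of interferon beta and interferon gamma, Ifnb1 and Ifng, also named afterwards, stood at -0.065 and 0.060 (adjusted p = 0.667 and 0.727).

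Interferon-stimulated genes outside the class I pathway were divided. Among 31 measured, 6 were called higher and 1 lower, against 7.34% and 7.15% of all genes. By less than 2-fold, 9 others were higher and 3 lower at an adjusted p under 0.05, where 12.4% and 14.3% of all genes were, and the list's median was 0.25. Iigp1, a GTPase of cell-autonomous defence, rose from 5.08, 4.58 and 4.82 to 8.37, 8.21 and 7.63, by 3.24 in the mean (SE 0.20, limma adjusted p = 5.23e-06). Oasl2, an oligoadenylate synthetase-like gene, rose by 2.17 (SE 0.32, adjusted p = 0.000758), with Pax7-GFP arrays at 7.85, 6.56 and 6.63. Ddx58, which encodes the RNA sensor RIG-I, fell by 1.10 (SE 0.12), and stood at -0.97 without Pax7-GFP replicate 3, so that 0 were lower (limma, 6 lower at an unadjusted p under 0.05 on all arrays). Without ES replicate 1 or ES replicate 3, 2 were lower. The classical targets Isg15 and Mx1, named after their values were seen, stood at 0.26 and -0.017 (adjusted p = 0.209 and 0.902). With values under the median of all values raised to it, 2 of the 31 were called higher, Iigp1 and Oasl2.

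Pax7-GFP replicate 1 stood apart in this list. It was the highest of the 3 Pax7-GFP arrays in 22 of the 31 genes, or 71.0%, against 33.8% of all genes. In the class I set it was the highest in 5 of 9, namely B2m, H2-K1, Tap1, Tap2 and Tapbp. Without it 4 of the 31 were called higher, Gbp7 and Rsad2 being lost, and B2m was still called. It was also the highest array for 8 of 10 fibroblast markers, such as Fap and Dcn. The same held for 5 of 8 myogenic markers, 9 of 16 factors of class I promoters and 4 of 8 ES markers. It also held for 6 of the 12 interferon ligands, receptors, kinases and inhibitors. In the other lists the share was smaller. It ran from 4 of 10 endothelial markers and 4 of 10 other loading genes down to 2 of 13 constitutive core subunits and 0 of 10 class II genes. The part of this array in the results was otherwise not tested.

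**Figure D4:**
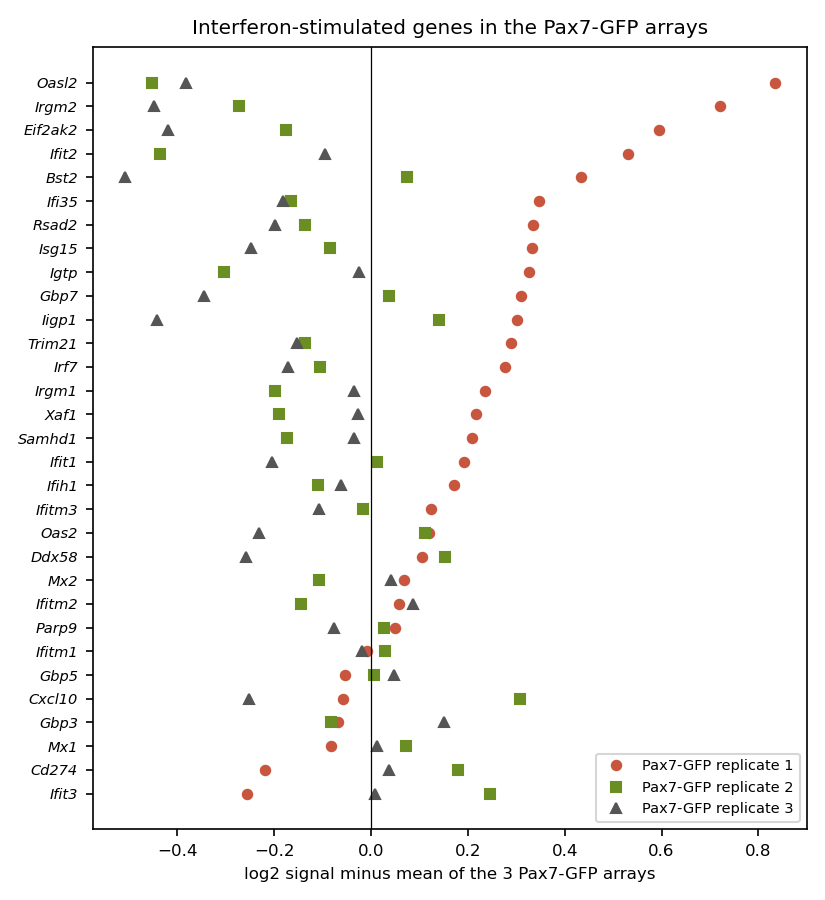
Log2 signal of 31 interferon-stimulated genes in each Pax7-GFP array, minus the mean of the 3 Pax7-GFP arrays (horizontal axis); rows are genes, ordered by replicate 1. Replicate 1 is the highest of the 3 in 22 genes, and the distance is largest for Oasl2.

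Markers of other cells that could carry class I were set beside B2m. Of all genes 7.34% were called higher and 7.15% lower, and these shares stand beside each count of called markers below. Of 13 haematopoietic markers 0 were called higher and 3 lower (limma, 3 higher at an unadjusted p under 0.05). The lower ones were Laptm5 at -2.81, Cd3e at -2.54 and the myeloid marker Cd68 at -1.56. By less than 2-fold, 3 of the 13 were higher at an adjusted p under 0.05, against 12.4% of all genes. Their groups did not overlap, as in 26.2% of all genes in this direction. They were the myeloid markers Fcer1g at 0.61, Tyrobp at 0.54 and Lyz2 at 0.54 (limma adjusted p = 0.0171, 0.00177 and 0.0064). Tyrobp and Lyz2 lay below the median of all values on all 6 arrays. Other myeloid markers did not pass the p threshold, with Itgam at 0.19, Adgre1 at 0.090, Cd14 at -0.0064, Csf1r at -0.027 and Spi1 at -0.12. Ptprc, the common leukocyte antigen, read between 4.59 and 4.69 on all 6 arrays. Apart from Laptm5 and Cd3e, the haematopoietic markers named here were picked after their values were seen. The summed linear signal of the 13 ranged from 1384 to 1540 in ES and from 590 to 730 in Pax7-GFP cells, and the 3 called genes made up most of it in ES cells. Over the 10 that were not called it ranged from 313 to 347 in ES and from 350 to 409 in Pax7-GFP cells. Of 10 MHC class II genes 1 was lower, H2-Eb1 at -2.46, and 0 were higher (limma, 1 at an unadjusted p under 0.05), and their sums ranged from 750 to 776 and from 399 to 472. Without H2-Eb1 the class II sums overlapped, at 352 to 390 and 340 to 388. Endothelial markers had 1 of 10 higher, Cdh5 at 1.41, and 2 lower, among them Pecam1 at -2.43, with sums of 814 to 839 and of 503 to 581, or of 276 to 285 and 276 to 303 over the 7 that were not called. Without Pax7-GFP replicate 1, 1 was lower, Egfl7 being lost. Of 10 fibroblast markers 6 were higher, against 7.34% of all genes, led by Fap at 4.29 and Dcn at 3.03. Mfap5 was lower at -1.82, the 1 of 10 in that direction, against 7.15%. The summed signal of the 10 fibroblast markers ranged from 1614 to 2173 in ES and from 4331 to 6044 in Pax7-GFP cells. Without ES replicate 1 or Pax7-GFP replicate 1, Postn was no longer called. Muscle cells are known to express some of these genes as well. Their part in the rise of B2m was not tested. Signals carry no detection calls, so no marker can be placed at 0.

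**Figure D5:**
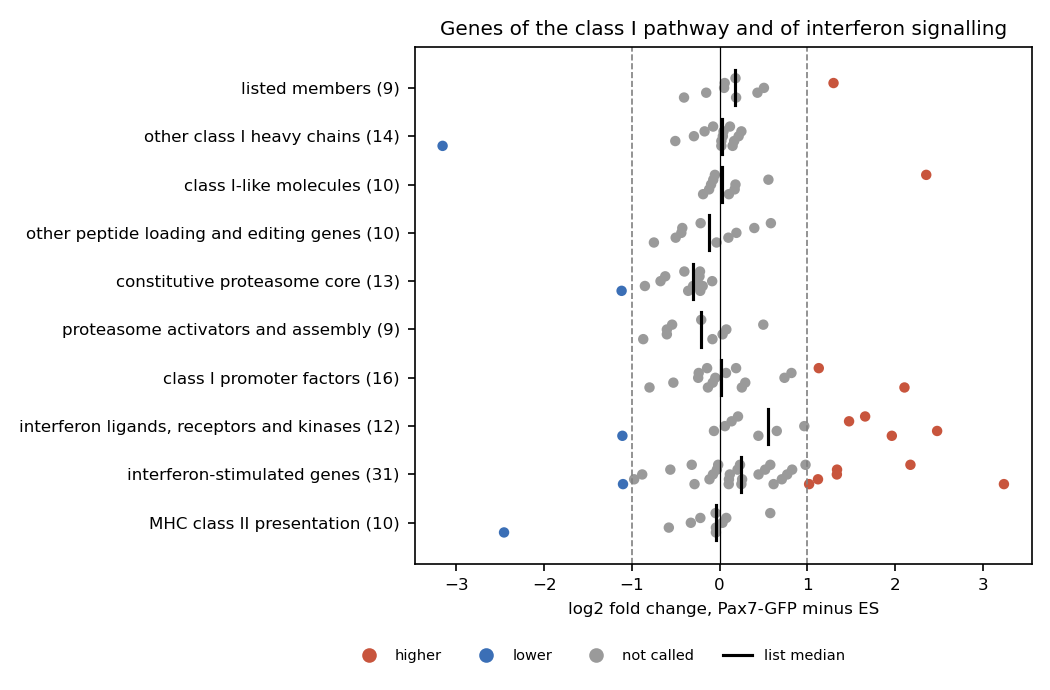
Log2 fold change of Pax7-GFP over ES cells (horizontal axis) for each measured gene of 10 lists; each point is 1 gene, coloured by its call, black bars are list medians, dashed lines mark a 2-fold difference and numbers in brackets count measured genes. Receptor and interferon-stimulated genes reach farther to the right than the class I genes, among which B2m alone is called, and the constitutive proteasome lies wholly left of 0.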

How the data were processed

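Signals of 6 arrays of biotin-labelled cRNA made by double amplification were used. The authors deposited log2 RMA signals (background-corrected, normalized and summarised per probe set), made in R 2.12.1 per the submitters' processing notes. Its options are not stated in the sources used here, and neither is a build. The table held 41345 probe sets. GEO's platform annotation named 23521 by 1 symbol and 1814 by several, and 16010 were not listed. A gene was read from its single-symbol probe set of highest mean, giving 22180 genes with no filter on dim values. Groups and replicate numbers come from the titles, which call replicates biological. Nothing says whether they were separate cultures. The p-values therefore reflect only the scatter among these samples, which may be technical.

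limma 3.58.1 in R 4.3.3 (lmFit, eBayes, two-sided) compared Pax7-GFP with ES arrays, with Benjamini-Hochberg adjustment over all genes. The fit was tested on simulated data. Replicate numbers were not taken as pairs, and the titles do not say whether same-numbered samples belong together. Members and lists were chosen with earlier results of these data known. Genes named were the members, Psmb5 to Psmb7, Pax7, Nanog, the genes most like B2m, and per list the largest called changes (2, and 1 in the other direction). Genes whose call changed in an alternative (Gbp7, Rsad2, Egfl7, Postn) and those marked in the text were named after their values were seen. Where RefSeq lists several promoter windows for a gene, the first was used. Alternatives varied scaling, a floor, a dim filter, probe set choice, the unit fitted, a replicate block, array weights, the variance prior, the fold minimum and the arrays. Precision is limited by 3 arrays per group.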

Additional observations from a re-analysis of the deposited data

How the results depend on the processing

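B2m was called higher in all 14 refits (log2 fold change 1.22 to 1.37, adjusted p from 8.84e-07 to 0.000255), and none of the other 8 genes was called in any refit. With no minimum fold 3 genes were higher and 1 lower, and at a minimum of 4-fold 0 were higher, both by construction. The number past the p threshold with less than 2-fold was 2 or 3 in every refit. Tap1 passed in 6 of 14 refits, Tap2 in 13 and Tapbp in 13. H2-K1 and Nlrc5, neither past the threshold in any refit, changed sign in 2 of 14 and 1 of 13. Over the other lists 27 genes were higher and 18 lower, and the 9 refits run for the lists (quantile scaling, floor, block, each array left out) gave 23 to 29 and 17 to 19. Deviations of same-numbered samples correlated at -0.11, -0.22 and 0.0069, so the numbers were not taken as pairs, and no sample correlated best with its own number. With a replicate block 1 class I gene, B2m at 1.30, 27 other genes higher and 18 lower were called, the same counts as without it. Psmb9 and Nlrc5 lay below the median of all values on all 6 arrays and the files give no detection calls, which limits what their folds can show.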

Other observations

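Within each group, B2m and H2-K1 varied together from array to array. In ES cells B2m deviated from its group mean by -0.10, 0.028 and 0.072 and H2-K1 by -0.091, 0.014 and 0.077. In Pax7-GFP cells the deviations were 0.15, -0.012 and -0.14 for B2m and 0.15, 0.018 and -0.17 for H2-K1. The pooled SD of their difference within arrays was 0.024, beside a median of 0.18 for B2m against the 22179 other genes, and 7 of those genes had a smaller SD against B2m. No other class I gene was among the 7. The pair was noticed after its values were seen and rests on 3 arrays per group.

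Over the 6 arrays, the genes whose signals correlated most closely with B2m were Copz2 (Pearson's r = 0.9998), a coat protein subunit of intracellular transport, Rhob (r = 0.9996), a small GTPase, and Lpp (r = 0.9996), an adhesion plaque protein. Their log2 fold changes were 2.69, 2.35 and 1.83. The step between the groups makes up most of such a correlation, and 2154 genes reached an r above 0.95.

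Of the 9 measured class I genes 6 lie on chromosome 17, where Psmb9, Tap1, Psmb8 and Tap2 follow one another among class II genes. The 3 nearest measured genes on either side of each member, 36 genes in all without the members, included 1 called higher and 2 called lower, or 8.33% called against 14.5% of all genes, with a median log2 fold change of -0.039. The called neighbours were Herpud1 beside Nlrc5 at 1.69, and Daxx and Wdr46 beside Tapbp at -1.57 and -1.09, all named by this position. All 6 measured neighbours of Tapbp stood below 0, from -1.57 to -0.088, as 10177 of all 22180 genes did. Of these neighbours, BC051226 and Zbtb22, also named by position, did not pass the p threshold (limma adjusted p = 0.456 and 0.16). Tapbp was below 0 on its main probe set and stood at 0.012 on its other one.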
